A study of Mus musculus with 4 samples.

Results

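Complement is a cascade of plasma proteins and cell-surface receptors that marks microbes and dying cells and draws in leukocytes. The classical pathway starts with C1q, the lectin pathway with ficolins and collectins that bind sugars, and the alternative pathway with C3 itself, helped by factor B and properdin. All of them build convertases that cut C3 and then C5, whose fragments act on the anaphylatoxin receptors, while membrane and soluble regulators limit the process. Tissue macrophages are a known local source of C1q and of several early components. The complement genes described here are a list of 30 symbols fixed by name. Of these, 27 had a transcript cluster (the set of array probes for a transcript) that carried their symbol alone, out of 22180 genes measured in the series. C3, Cfd and Masp2 were not analysed here.

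The series compares 2 sorted macrophage subsets of mouse ear dermis, CX3CR1low and CX3CR1bright, with 2 arrays each and 4 in all. Every mouse was an untreated adult of strain C57Bl/6 and genotype Cx3cr1+/gfp, so GFP replaced 1 of the Cx3cr1 alleles in both subsets and each cell kept a single working copy of this chemokine receptor gene. Each array held RNA of cells from 3 to 6 pooled mice, and the replicates of a subset came from 2 independent litters. The labels name no sort marker other than CX3CR1. Values are log2 levels after RMA, a method that corrects background, equalises arrays and summarises probes. A level near the array medians, 3.65 to 3.68, can be background. Cx3cr1, which the gate used, stood at 3.63 and 3.60 in CX3CR1low and at 8.42 and 8.44 in CX3CR1bright, as the labels say. Of 10 macrophage markers 9 were measured, each above the array median on all 4 arrays, with list means of 10.4 to 10.6 on the arrays. In CX3CR1bright 4 of the 9 were higher and 5 lower. Their median difference was -0.33 on the log2 scale (CX3CR1bright minus CX3CR1low), and that of Cd68 was -0.64.

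Of 13 measured genes of the classical, alternative and lectin pathways, 11 had a lower mean level in CX3CR1bright than in CX3CR1low macrophages, and regulators went both ways. None of these differences passed the test across all genes. The 13 include C1ra, C1s1 and Fcnb, which were too dim to be tested. Over all 22180 genes measured, the median difference was also negative, at -0.032, so more of all genes were lower than higher in CX3CR1bright. The count of 11 of 13 is to be read beside that. C4b, which encodes complement C4, had the largest difference of the list at -2.58 on the log2 scale (CX3CR1bright minus CX3CR1low). Properdin (Cfp), C2, ficolin A (Fcna), factor B (Cfb), the collectin Colec12 and the C5a receptor gene C5ar1 followed at -1.61 to -1.03. The genes of the C1q chains, C1qa, C1qb and C1qc, differed by -0.41, -0.17 and -0.64. These are levels in RNA of sorted pools, in which fewer cells of a type and less RNA per cell cannot be told apart.

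Genes went into the test when their level exceeded the array median on 2 or more arrays, as it did for 18 of the 27 measured members. None of them passed an adjusted p of 0.05 (limma, Benjamini-Hochberg over the 13133 genes tested), where 0.137% of all tested genes did. C4b came nearest, at an adjusted p of 0.0541. Members did pass under some alternatives, all with negative differences. Among these were 4 of 18 under an intensity trend in the variance prior (C2, C4b, Cfp and Fcna) and 3 of 14 with a stricter filter (C4b, Cfp and Fcna). More of all genes passed there too, 308 of 13133 tested under the trend and 355 of 7166 with the stricter filter. At an unadjusted p under 0.05 (limma), 8 members had a negative difference and 0 a positive one, against a background of 11.8% of tested genes lower and 7.03% higher. Over all 27 measured members, 17 had both CX3CR1bright arrays below both CX3CR1low arrays and 0 had both above, where 25.5% of all measured genes were lower and 18.3% higher in this sense. At least 1 lower on the log2 scale without overlap were 7 of 27 members, against 1.77% of measured genes. The median difference was -0.31 over the 27 members and -0.032 over all 22180 genes. In the 8 members with an unadjusted p under 0.05, the gap between the subsets was 0.50 to 2.17, larger than the distance between replicates of either subset in 7 of them. The exception was Cfb. A permutation of 2 against 2 arrays cannot give an exact two-sided p below 0.33, so the fit across all genes is the test used.

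**Figure D1:**
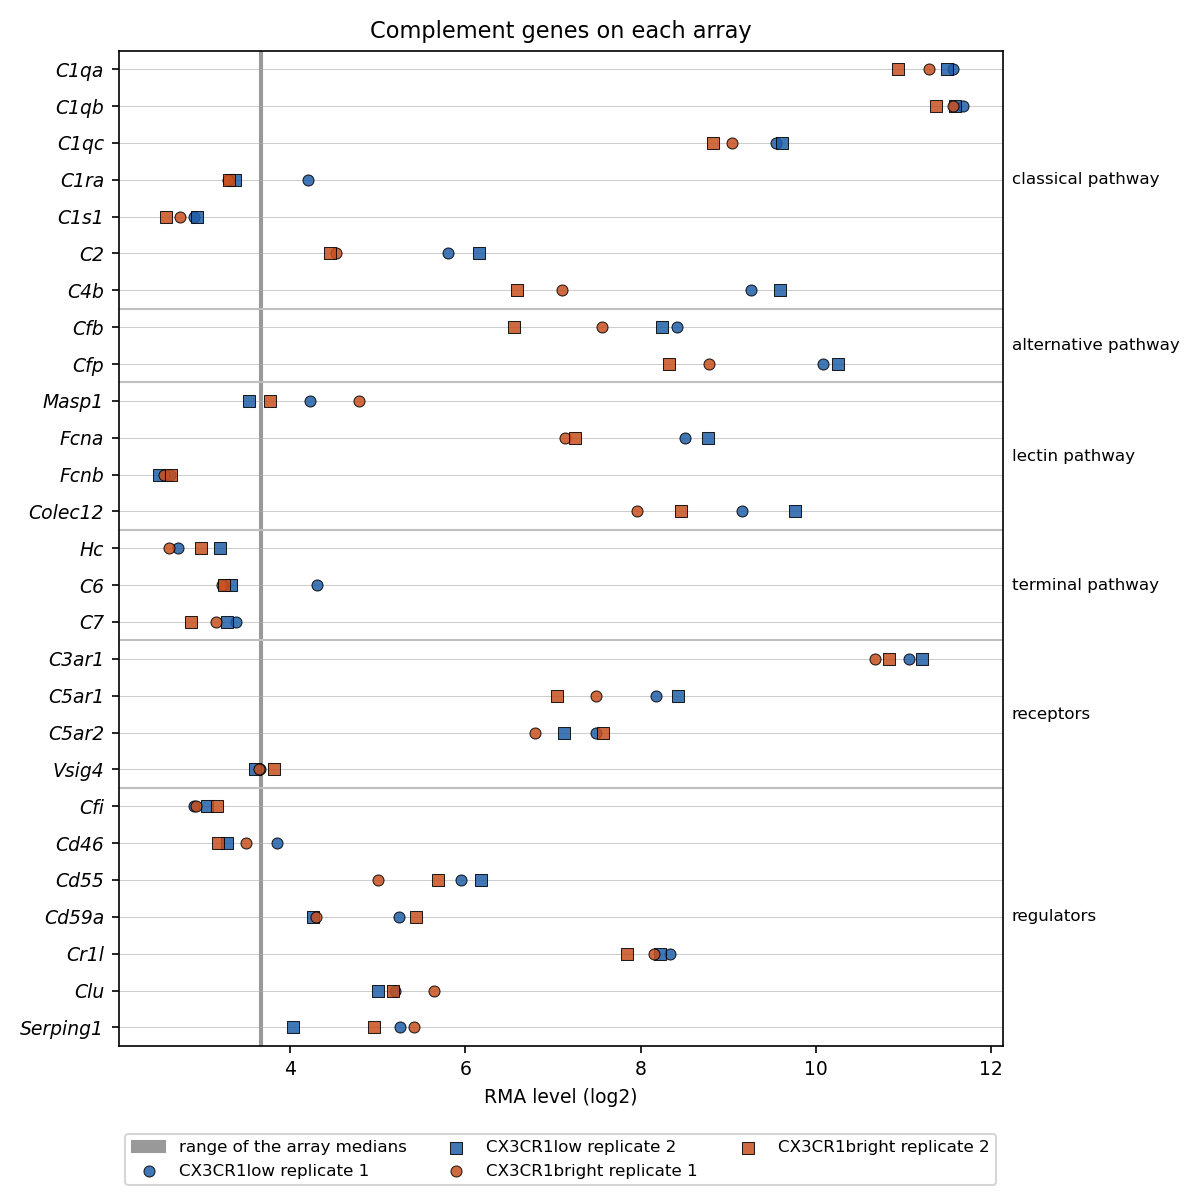
Log2 RMA level (horizontal axis) of the 27 measured complement genes on each of the 4 arrays, by role, with the range of the array medians as a grey band. The CX3CR1bright points of C4b (7.10 and 6.59) lie left of the CX3CR1low points (9.27 and 9.59), and the 9 genes too dim to be tested lie at the left, between 2.50 and 4.31.

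**Figure D2:**
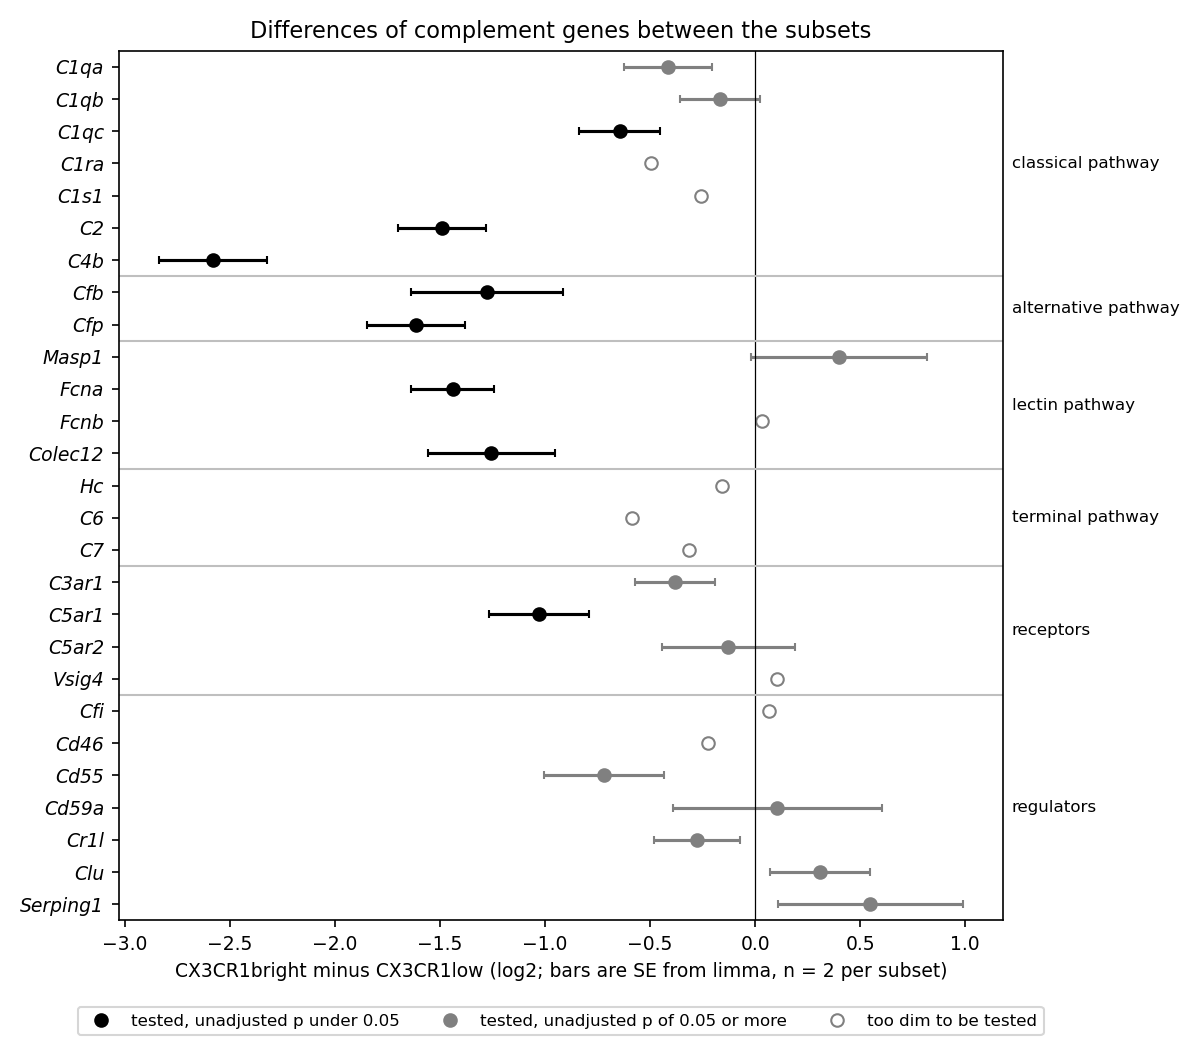
Difference CX3CR1bright minus CX3CR1low on the log2 scale for the 27 measured complement genes, with SE bars from limma (n = 2 per subset) for the 18 tested. Black points are the 8 genes with an unadjusted p under 0.05, all left of 0, and open points are the 9 genes too dim to be tested.

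In the classical pathway, all 7 measured genes had a negative difference without overlap between the subsets, 5 were tested, and 3 had an unadjusted p under 0.05 (limma). Over all genes, 25.5% were lower without overlap and 11.8% of those tested were lower at that p. Among the 7 are the dim genes C1ra and C1s1, with gaps of 0.075 and 0.17 at levels that can be background. C4b (cluster 17343918) encodes the component that, once cut, binds covalently to the target surface. It stood at 9.27 and 9.59 in CX3CR1low replicates 1 and 2 and at 7.10 and 6.59 in CX3CR1bright replicates 1 and 2. The lowest CX3CR1low array was 2.17 above the highest CX3CR1bright array. The difference was -2.58 ± 0.26 (SE, n = 2 per subset), or 5.99-fold, with a 95% interval of -3.23 to -1.93. Only 3 of the 13133 tested genes had a lower difference. Over the alternative settings run, its adjusted p ranged from 0.0123 to 0.392 (limma). The adjusted p of 0.0541 became 0.0332 without CX3CR1bright replicate 1, where the difference was -2.84, and it was 0.392 without CX3CR1low replicate 2, where the difference was -2.42 (limma). Its paralog C4a, named here after its values were seen, lay below the array medians throughout at 2.21 to 2.97. Probes may not separate these nearly identical genes fully.

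C2 encodes the protease that joins C4b in the classical and lectin C3 convertase. Its levels were 5.81 and 6.15 in CX3CR1low and 4.53 and 4.45 in CX3CR1bright macrophages, so both CX3CR1bright arrays lay lower by at least 1.28. The difference was -1.49 ± 0.21 (limma, adjusted p = 0.0798). C2, Cfb and C4b lie on chromosome 17 in the major histocompatibility region. In the RefSeq gene order of assembly GRCm38.p6, 0 protein-coding genes lie between Cfb and C2 and 5 between C4b and Cfb. All 3 of these neighbours were among the 8 members with an unadjusted p under 0.05 (limma), where 11.8% of all tested genes were lower. The genes between C4b and Cfb are not on the list and are not described here.

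C1q is built from the products of C1qa, C1qb and C1qc, which neighbour each other on chromosome 4 with 0 protein-coding genes between them. C1qc stood at 9.54 and 9.62 in CX3CR1low and at 9.05 and 8.82 in CX3CR1bright macrophages, a difference of -0.64 ± 0.19 (limma, adjusted p = 0.182). C1qa stood at 11.56 and 11.50 against 11.29 and 10.94, a difference of -0.41 ± 0.21 with a 95% interval of -0.94 to 0.11. C1qb had 11.68 and 11.59 against 11.57 and 11.37, a difference of -0.17 ± 0.19 with an interval of -0.65 to 0.32. The subsets were separated by 0.023 in C1qb, less than the distance of 0.20 between its CX3CR1bright replicates. Without CX3CR1bright replicate 2 the C1qa and C1qb differences were -0.24 and -0.066. All 3 genes were far above the array medians in both subsets, and whether the chains differ from each other was not tested. The C1 proteases C1ra and C1s1 were dim. C1ra lay between 3.29 and 4.21, above the array median on CX3CR1low replicate 1 alone, and C1s1 between 2.59 and 2.94, below it on every array. A second C1s1 cluster differed by 0.28 where the first differed by -0.26, both below the medians.

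Promoter sequence is shown for the C1q neighbours C1qb and C1qc, whose differences were both negative. Each is the 250 bases before the gene start, 5′ to 3′ on the gene's strand, from RefSeq (GRCm38.p6): chr4:136886201-136886450 and chr4:136892915-136893164, both on the minus strand. Capitals mark matches on either strand to 3 short motifs, namely GAGGAA (the core bound by PU.1, a factor of myeloid cells), TGCTGA (a half-site of MAF factors) and TATAAA (the TATA box).
C1qb: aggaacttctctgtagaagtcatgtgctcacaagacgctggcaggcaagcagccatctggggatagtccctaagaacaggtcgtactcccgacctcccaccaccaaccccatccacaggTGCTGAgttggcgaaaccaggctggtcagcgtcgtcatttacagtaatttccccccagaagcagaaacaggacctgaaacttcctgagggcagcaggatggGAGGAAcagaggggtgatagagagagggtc
C1qc: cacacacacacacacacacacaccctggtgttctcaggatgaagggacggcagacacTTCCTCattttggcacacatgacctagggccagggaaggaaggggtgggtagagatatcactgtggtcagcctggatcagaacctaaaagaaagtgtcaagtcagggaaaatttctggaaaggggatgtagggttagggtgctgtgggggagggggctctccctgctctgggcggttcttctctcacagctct
C1qb held 1 PU.1-type match 30 bases before the start and 1 MAF half-site 131 bases before it, and C1qc held 1 PU.1-type match 193 bases before the start. Of all 32851 promoter windows of this length in the table, 23.3% held a PU.1-type match, 16.1% a MAF half-site and 12.4% a TATA box. Windows were found for 21 of the 30 listed genes, of which 6 held a PU.1-type match, 8 a MAF half-site and 3 a TATA box. A match is a run of letters and does not show that a factor binds.

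The alternative pathway was represented by factor B and properdin. Cfp (cluster 17540521) encodes properdin, which stabilises the C3 convertase. It stood at 10.08 and 10.26 in CX3CR1low and at 8.78 and 8.33 in CX3CR1bright macrophages, 1.30 apart at the nearest. The difference was -1.61 ± 0.23, or 3.06-fold, with an interval of -2.20 to -1.03 (limma, adjusted p = 0.0819). It passed the threshold without CX3CR1bright replicate 1 (difference -1.84, adjusted p = 0.0482, limma), and over the alternatives its adjusted p ranged from 0.0210 to 0.445.

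Cfb encodes factor B, the catalytic part of the alternative C3 convertase. Its levels were 8.42 and 8.24 in CX3CR1low, and 7.56 and 6.55 in CX3CR1bright. The CX3CR1bright replicates lay farther apart than the subsets, whose gap was 0.69. The difference of -1.28 ± 0.36 (limma, adjusted p = 0.171) was -0.78 without CX3CR1bright replicate 2 and -1.78 without CX3CR1bright replicate 1, so its size rests on which of these arrays is used.

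In the lectin pathway, 4 of 5 listed genes were measured and 3 tested. Fcna encodes ficolin A, a macrophage and plasma lectin that binds acetylated sugars and carries the MASP proteases. It stood at 8.51 and 8.77 in CX3CR1low and at 7.14 and 7.26 in CX3CR1bright macrophages. The replicates lay within 0.26 of each other and the subsets 1.25 apart. The difference was -1.44 ± 0.20, or 2.71-fold, with an interval of -1.94 to -0.94 (limma, adjusted p = 0.0794). Colec12, a scavenger-receptor collectin of the cell membrane, stood at 9.16 and 9.77 against 7.96 and 8.46, a difference of -1.26 ± 0.30 (limma, adjusted p = 0.137). Masp1, a protease of the pathway, overlapped between the subsets at 4.22 and 3.54 against 4.79 and 3.77. Its difference was 0.40 ± 0.42, or -0.11 without CX3CR1bright replicate 1. Fcnb, the second ficolin gene, lay below the medians at 2.50 to 2.64 on every array.

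The Fcna promoter is shown because this gene had one of the larger differences on the list with close replicates. It covers chr2:25627975-25628224 (GRCm38.p6, minus strand), with capitals for the same motifs.
Fcna: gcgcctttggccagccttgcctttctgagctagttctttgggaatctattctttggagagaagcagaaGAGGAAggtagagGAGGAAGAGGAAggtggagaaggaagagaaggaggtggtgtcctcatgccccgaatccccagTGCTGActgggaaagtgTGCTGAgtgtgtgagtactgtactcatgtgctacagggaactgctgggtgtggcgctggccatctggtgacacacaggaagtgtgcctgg
It held 3 PU.1-type matches, 182, 169 and 163 bases before the start, the last of which directly follows the one before it, and 2 MAF half-sites at 107 and 90 bases. No other member window held as many PU.1-type matches, and the Cfp window held none of the 3 motifs. C4b, C2, Cfb and Colec12 had no window, so their promoters were not searched.

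The terminal pathway was dim. Hc, the mouse gene for C5, and C6 and C7, which join the membrane attack complex, lay between 2.62 and 4.31, and C6 alone lay above an array median, on CX3CR1low replicate 1. None was tested, and their differences of -0.16, -0.59 and -0.31 are within levels that can be background.

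Of the 4 receptor genes 3 were tested, and 1 of them, C5ar1, had an unadjusted p under 0.05 (limma), with a negative difference. Over all tested genes, 11.8% were lower at that p. C5ar1 (cluster 17486864), the main receptor for the C5a fragment, stood at 8.18 and 8.43 in CX3CR1low and at 7.50 and 7.05 in CX3CR1bright macrophages. The difference was -1.03 ± 0.24, or 2.04-fold (limma, adjusted p = 0.134). C5ar2, a second C5a receptor that does not couple to G proteins, is its direct neighbour on chromosome 7. C5ar2 levels overlapped at 7.49 and 7.13 against 6.80 and 7.57, with a difference of -0.13 ± 0.32 and an interval of -0.93 to 0.67. Its sign turned after cyclic loess (0.0155) and without CX3CR1low replicate 1 or CX3CR1bright replicate 1. That interval overlaps the C5ar1 interval of -1.63 to -0.43, and the difference between the genes was not tested. C3ar1, the receptor for the C3a fragment, had 11.06 and 11.22 against 10.68 and 10.84, a difference of -0.38 ± 0.19 with an interval of -0.86 to 0.10. The replicates were 0.15 and 0.16 apart and the subsets 0.22. Vsig4, the complement receptor of some tissue macrophages such as those of the liver, lay at 3.60 to 3.82 on all arrays, near the medians.

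The promoter windows of the neighbours C5ar1 and C5ar2, the former without and the latter with overlap between the subsets, cover chr7:16259339-16259588 and chr7:16244155-16244404, both on the minus strand of GRCm38.p6.
C5ar1: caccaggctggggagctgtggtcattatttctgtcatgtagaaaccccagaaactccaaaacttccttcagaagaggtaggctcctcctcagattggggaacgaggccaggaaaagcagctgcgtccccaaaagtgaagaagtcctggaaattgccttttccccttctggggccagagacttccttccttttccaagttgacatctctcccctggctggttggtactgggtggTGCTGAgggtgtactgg
C5ar2: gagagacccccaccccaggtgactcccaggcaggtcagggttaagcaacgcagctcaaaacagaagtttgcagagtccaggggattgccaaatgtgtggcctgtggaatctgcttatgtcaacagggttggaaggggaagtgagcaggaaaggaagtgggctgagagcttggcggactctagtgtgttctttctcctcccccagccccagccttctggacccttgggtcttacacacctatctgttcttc
C5ar1 held 1 MAF half-site, 17 bases before the start, and this C5ar2 window held none of the 3 motifs. C5ar2 has a second listed start, whose window held 1 PU.1-type match.

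Regulators had differences in both directions, with 3 of 7 negative, 4 positive, and 0 of 5 tested members at an unadjusted p under 0.05 (limma). At that p 11.8% of all tested genes were lower and 7.03% higher. Cd55, which speeds the decay of C3 convertases, stood at 5.95 and 6.17 in CX3CR1low and at 5.0 and 5.69 in CX3CR1bright macrophages. Its difference of -0.72 ± 0.28 (limma, unadjusted p = 0.0503, adjusted p = 0.267) became -0.38 without CX3CR1bright replicate 1 and -1.06 without CX3CR1bright replicate 2 (limma, unadjusted p = 0.00696), and with the replicate number as a block the unadjusted p was 0.0270. Cr1l, the mouse regulator Crry that protects host cells, had 8.33 and 8.22 against 8.15 and 7.85, a difference of -0.28 ± 0.20 with an interval of -0.79 to 0.24. Clu, the chaperone clusterin, which inhibits the membrane attack complex, had 5.19 and 5.01 against 5.64 and 5.17, a difference of 0.31 ± 0.24 that was 0.073 without CX3CR1bright replicate 1 and 0.54 without CX3CR1bright replicate 2. Serping1, the inhibitor of C1 and MASP proteases, had 5.25 and 4.03 against 5.42 and 4.96, a difference of 0.55 ± 0.44 that was -0.062 without CX3CR1low replicate 2. Cd59a, which blocks the membrane attack complex, spanned 4.26 to 5.25 in CX3CR1low and 4.29 to 5.43 in CX3CR1bright, so replicates of each subset lay farther apart than the subset means. Its difference was 0.11 ± 0.50. Cfi, the protease factor I, lay below the medians at 2.90 to 3.17, and Cd46 lay above a median on CX3CR1low replicate 1 alone.

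**Figure D3:**
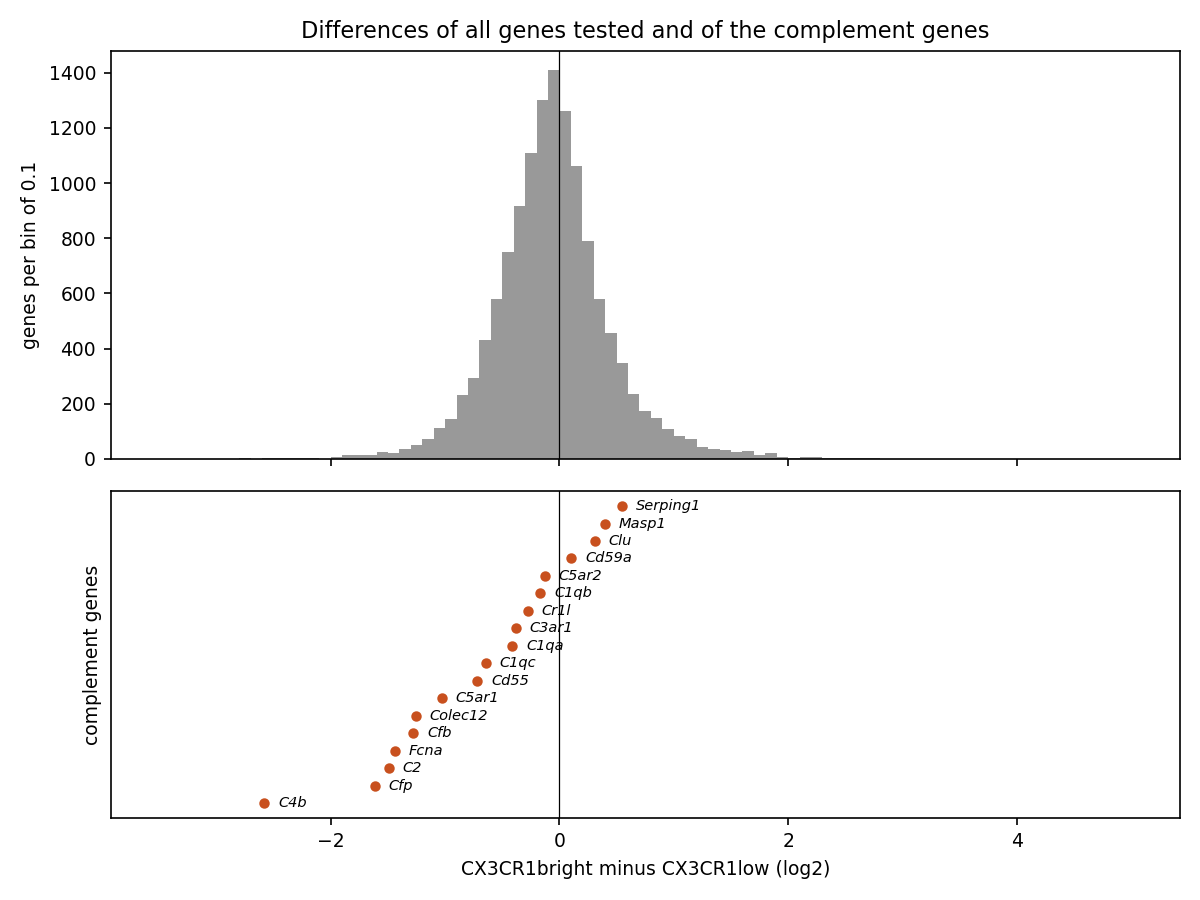
Top, number of genes per bin of 0.1 of the difference CX3CR1bright minus CX3CR1low (log2) for the 13133 genes tested, and bottom, the 18 complement genes tested, each a point, on the same axis. C4b lies at -2.58, where 3 tested genes are lower, and Serping1 is the highest at 0.55.

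Within the whole set of tested genes, the complement genes ran from the lower tail to the upper part. Lower differences than that of Cfp were found for 0.495% of tested genes, than C2 for 0.708%, than Fcna for 0.800%, than Cfb for 1.26%, than Colec12 for 1.35% and than C5ar1 for 2.70%. C1qc stood at 9.72%, C1qa at 20.5% and C1qb at 40.3% on the same scale. Above the middle lay Cd59a at 67.6%, Clu at 81.7%, Masp1 at 85.6% and Serping1 at 90.4%. Between CX3CR1bright replicates, replicate 2 was the lower in 6 of the 8 members with an unadjusted p under 0.05, the exceptions being Fcna and Colec12. Between CX3CR1low replicates, replicate 2 was the higher in 7 of the 8, the exception being Cfb.

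**Figure D4:**
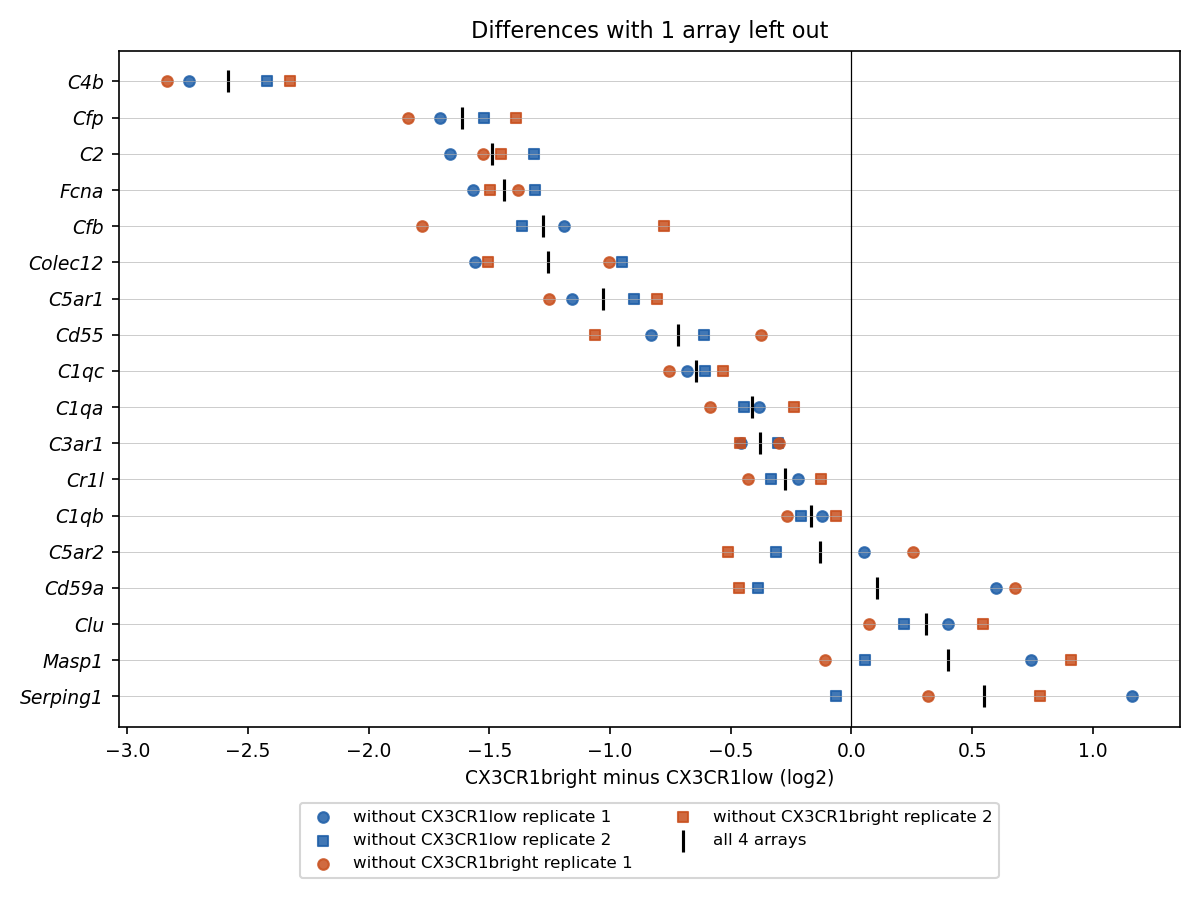
Difference CX3CR1bright minus CX3CR1low (log2) of the 18 complement genes tested, with each array left out in turn (points) and with all 4 arrays (bars). C4b stays between -2.84 and -2.33 and Fcna between -1.57 and -1.31, while Cfb runs from -1.78 to -0.78 and C5ar2, Cd59a, Masp1 and Serping1 have points on both sides of 0.

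A further list of 43 genes of the wider complement field, such as integrin receptors, pentraxins, C1q receptors and later components, had 40 measured and 18 tested members. None passed the adjusted threshold. At an unadjusted p under 0.05 (limma) 3 of the 18 were lower and 2 higher, beside 11.8% and 7.03% of all tested genes, and the median difference over the 40 was 0.0086. C8b, 1 of the 2 higher genes, reached the filter through its CX3CR1bright arrays alone. The filter thus fixed its direction, and its p-value is not free of that choice and carries no support. The lower ones were C1qtnf1, a secreted protein with a C1q-type domain, at -1.66 ± 0.31, Thbd, the thrombin receptor thrombomodulin, at -1.57 ± 0.32, and the scavenger receptor gene Scarf1 at -1.57 ± 0.47. Scarf1 stood at 5.97 and 5.96 in CX3CR1low and at 5.11 and 3.68 in CX3CR1bright. Itgax, the alpha chain of complement receptor CR4 and also a dendritic cell marker, had the largest positive difference of this list, with 4.75 and 5.36 against 6.88 and 6.61, a difference of 1.69 ± 0.27 (limma, adjusted p = 0.0913). Itgam, the alpha chain of CR3, differed by 0.15 ± 0.23 and their common beta chain gene Itgb2 by -0.40 ± 0.20. C8b lay near the medians at 3.27 to 4.03.

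Markers of other cell types differed between the same arrays. All 10 fibroblast markers had positive differences, with list means of 5.84 and 5.79 in CX3CR1low and 6.51 and 6.71 in CX3CR1bright. Of the 10, 7 had an unadjusted p under 0.05 (limma), where 7.03% of all tested genes were higher. All 9 measured keratinocyte markers were positive, with means of 5.65 and 5.01 against 5.88 and 7.60, the last on CX3CR1bright replicate 2. The 7 Langerhans cell markers measured had means of 5.59 and 5.29 against 6.42 and 7.44. Conventional dendritic cell markers had means of 5.87 and 6.09 against 6.72 and 6.65, with 6 of 9 positive. None of these markers passed the adjusted threshold, and 0 markers of these 4 lists were below the array median on all arrays. The 5 T cell markers measured had means of 4.32 and 4.18 against 5.36 and 4.35, the highest on CX3CR1bright replicate 1. Mast cell markers had means of 6.68 and 6.81 against 6.37 and 6.39, with 7 of 8 negative. The 8 endothelial markers had means of 4.01 and 4.16 against 4.28 and 3.66, with 4 positive and 4 negative. Among them Cdh5 stood at 6.10 and 7.09 against 5.71 and 4.07, while Cldn5 differed by 0.87. The 8 adipocyte markers had means of 4.44 and 4.27 against 4.53 and 4.57, with 5 positive. Adipoq and Plin1 lay below the median on all arrays, while Pck1 and Cd36 lay above it on all. The 8 neutrophil markers had means of 4.02 and 3.97 against 4.14 and 3.86, with 3 positive. Ly6g, Ngp, Retnlg and S100a8 lay below the median on all arrays, S100a9 differed by 1.02, and Csf3r stood at 8.67 and 8.74 against 8.14 and 7.18. The part of these cells in the complement differences was not tested. Leaving out an array does not test it either. With CX3CR1bright replicate 2 left out, the C4b, Cfp, C2, Fcna and Colec12 differences were -2.33, -1.39, -1.45, -1.50 and -1.51. Those of Cfb, C5ar1 and C1qc were -0.78, -0.81 and -0.53. Of these differences, all but those of Fcna and Colec12 were smaller than with all arrays. Fibroblast and Langerhans cell markers were high on the remaining CX3CR1bright array too, and the keratinocyte list had a mean of 5.88 there.

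**Figure D5:**
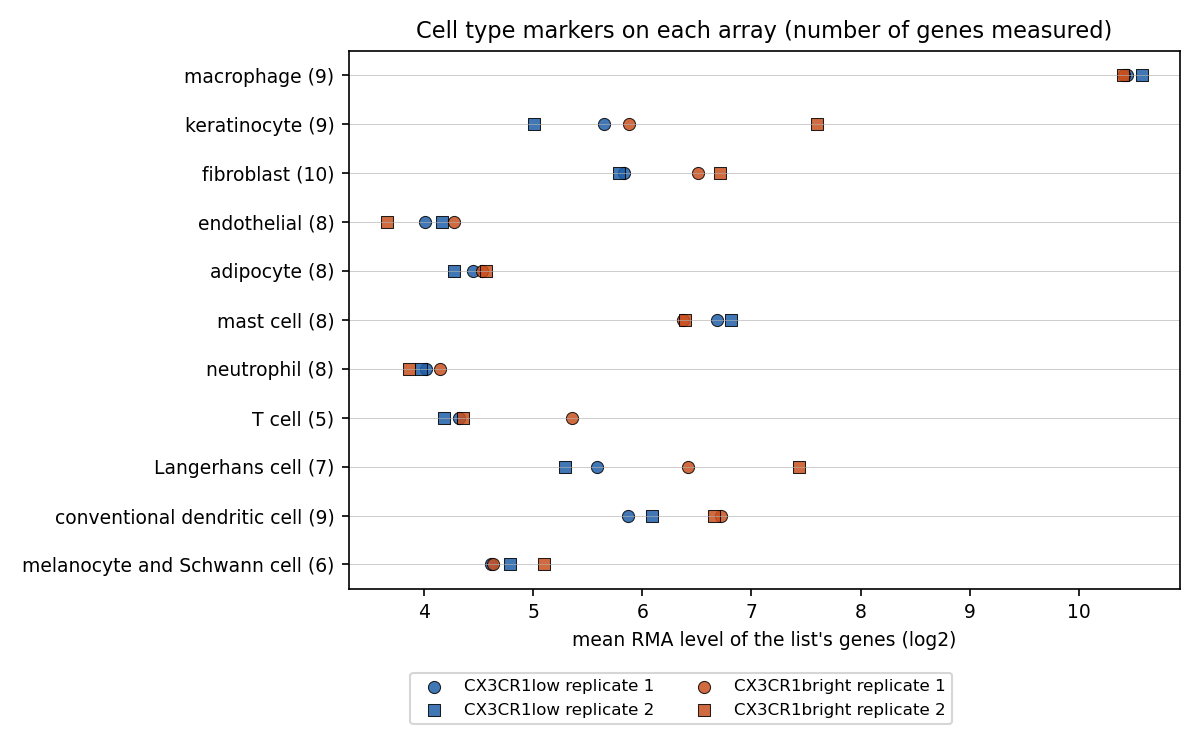
Mean log2 RMA level of each cell type marker list on each of the 4 arrays, with the number of genes measured. Macrophage markers lie at 10.4 to 10.6 on every array, while the keratinocyte list reaches 7.60 on CX3CR1bright replicate 2 and fibroblast and Langerhans cell lists lie higher on both CX3CR1bright arrays.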

How the data were processed

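RNA of sorted dermal macrophages, 2 arrays per subset, was measured on Affymetrix whole-transcript arrays after amplification with a small-input kit, per the labels' protocols. The deposited log2 values are the authors' RMA output, for which the submitters' processing notes name Affymetrix Expression Console 1.4. Probe intensities and detection calls were not used here, so background correction could not be varied. The build of the array annotation is not given in the sources used here. The table held 34390 clusters, of which 23521 carried 1 symbol, 1814 several (Masp2 among them) and 9055 none. By Entrez identifier 23328 matched RefSeq (GRCm38.p6). Per gene the cluster with the highest mean was used (22180 genes). RefSeq gave names, gene order and promoter windows alone.

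The 13133 genes that passed the filter entered limma 3.58.1 (R 4.3.3; lmFit, eBayes, two-sided, Benjamini-Hochberg, threshold 0.05), without a block. Residual degrees of freedom were 2, with 3.28 added by the prior. The procedure was tested on simulated data. Replicates are pools of mice, so p-values cover spread between pools and the number of arrays limits precision. All 30 listed genes are named. Other complement genes are named where the unadjusted p was under 0.05, or where subsets did not overlap and lay at least 1 apart on the log2 scale. C4a, Itgam and Itgb2 were added after their values were seen. The members, lists and tests were chosen with earlier results of these data known. Alternatives were other filters, scalings, variance priors, cluster means, the replicate number as a block and each array left out.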

Additional observations from a re-analysis of the deposited data

How the results depend on the processing

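With each array left out in turn, the count of all genes past the adjusted threshold (18 in the fit reported) ran from 0 to 154 and that of complement members (0 in the fit reported) from 0 to 2. The count of all genes was 1 without a filter, and 355 of 7166 tested with all arrays required above 5 on the log2 scale. It was 1 after quantile normalization, 33 after cyclic loess, 308 of 13133 tested under an intensity trend and 1 under a robust prior (limma). With the stricter filter 3 members passed (C4b, Cfp and Fcna, adjusted p = 0.0124, 0.0246 and 0.0228, limma), and with the trend 4 did (C2, C4b, Cfp and Fcna, adjusted p = 0.0428, 0.0123, 0.0210 and 0.0232, limma). Members lower at an unadjusted p under 0.05 were 8 of 14 tested with the stricter filter and 11 of 18 under the trend (limma). Of all tested genes, 18.4% and 12.9% were lower at that p. Higher members numbered 0 under both, where 6.95% and 7.13% of tested genes were higher. The median difference was -0.53 over the 18 members that pass the filter, beside -0.070 over all genes tested. Over the 27 members measured it was -0.31 with all arrays, and -0.46 to -0.26 with an array left out. Members higher without overlap numbered 1 after quantile normalization, 2 after cyclic loess and 1 to 6 with an array left out. With an array left out, 2 arrays face 1, so subsets separate more easily than with 4 arrays. The shares over all genes under these settings were not computed. Among tested members, signs turned for C5ar2 (0.0155 after cyclic loess, -0.51 to 0.26 with an array left out), Cd59a (-0.47 to 0.68), Masp1 (-0.11 to 0.91) and Serping1 (-0.062 to 1.16). The dim genes Hc, Cd46, Cfi and Fcnb also turned sign with an array left out, at levels that can be background. The cause was not tested. Of 302 values of single members under the alternatives, 285 kept direction and side of the threshold or, for genes too dim to be tested, moved by less than the replicate SD. Turns of sign were counted for tested members alone. Of the rest, 9 newly passed the threshold, 7 turned sign and 1, C1s1 as the mean of its clusters, moved from -0.26 to 0.012. C2, Cd59a, Masp1 and Serping1 did not pass the stricter filter and have no value there.

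With the replicate number as a replicate block, 0 genes and 0 members passed the adjusted threshold (limma). At an unadjusted p under 0.05, 9 of 18 tested members were lower, where 12.4% of all tested genes were (limma). Deviations of same-numbered arrays from their group means correlated at 0.16 over 13133 genes. The labels do not say that a number marks a shared litter, so the samples share only a number.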
